A study of Homo sapiens with 16 samples.

Results

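PANC1 is an established cell line from a human pancreatic ductal adenocarcinoma (PDAC). The comparison described here asked what genistein changed in PANC1 cells that already received gemcitabine, and it rests on 4 of the 16 RNA-Seq libraries of the study. The co-treatment libraries I and II came from cells given 40 nM gemcitabine and 50 µM genistein for 24 hours, and the gemcitabine libraries I and II came from cells given 40 nM gemcitabine alone for 24 hours. The other 4 PANC1 libraries, 2 control and 2 genistein alone, shared the estimate of the spread. The remaining 8 libraries repeat the same 4 groups in MiaPaCa2, another PDAC line, and served to ask whether a change differed between the lines, for marker levels and in an alternative fit of all libraries. Every group has 2 biological replicates, genistein was dissolved in DMSO, and all cells grew in medium with fetal bovine serum. The members of the comparison are all genes of the count table, 63677 Ensembl identifiers, of which 16909 had enough reads to be tested.

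Gemcitabine is a deoxycytidine analogue that stops DNA synthesis and inhibits ribonucleotide reductase. Genistein, an isoflavone of soy, binds estrogen receptors, inhibits tyrosine kinases and acts on topoisomerase II. Cells that lack amino acids or accumulate unfolded protein phosphorylate eIF2α, which favours translation of the transcription factor ATF4. ATF4 then switches on genes such as ASNS, CHAC1, TRIB3 and DDIT3, a programme called the integrated stress response.

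The 4 libraries held between 14314926 and 19687684 reads counted on genes. Levels are given as CPM (counts scaled to the library total with TMM factors), and changes as log2 fold change (log2FC) with its standard error (SE). The 8 markers listed for PANC1, keratins, VIM, SOX9, HMGA2 and HOTAIR, were all tested, and their summed level was 4130 to 4720 CPM in the co-treatment libraries and 5420 to 5850 CPM in the gemcitabine libraries. The same sum was 5560 to 6090 CPM in the MiaPaCa2 libraries, so it does not tell the lines apart. The 5 markers of MiaPaCa2 summed to at most 1.19 CPM here, against 2140 to 2890 CPM in the MiaPaCa2 libraries. Pancreatic enzyme genes PRSS1, CPA1, AMY2A and PNLIP, hormone genes INS, GCG and SST, and the leukocyte genes PTPRC and CD3E had no reads. The 4 genes listed as fibroblast markers, COL1A1 and COL3A1 among them, summed to 148 to 230 CPM in co-treatment. With gemcitabine alone they summed to 250 to 310 CPM. COL1A1 made up most of this sum, and DCN had no reads. In bulk RNA, fewer cells of a kind and less RNA per cell cannot be told apart.

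Adding genistein to gemcitabine raised the asparagine synthetase gene ASNS and the long noncoding RNA RP11-284F21.10 and lowered the transcription factor gene KLF6. These were the only genes called of 16909 tested in the counts as deposited (0.0177%), with limma-voom. A gene counted as called when its adjusted p did not exceed 0.05, its log2FC was 0.4 or more in size and its FPKM averaged over 1 in the co-treatment libraries. At an unadjusted p of at most 0.05 there were 2262 genes, and edgeR's quasi-likelihood test also called 3.

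ASNS (ENSG00000070669, GRCh37 chr7:97480989-97501854, minus strand) makes asparagine from aspartate and is a standard target of ATF4. It stood at 706 and 667 CPM in co-treatment I and II and at 301 and 332 CPM in gemcitabine I and II. The co-treatment libraries were both above the gemcitabine libraries, and the control libraries, at 303 and 298 CPM, lay beside gemcitabine. The log2FC was 1.12 ± 0.09 (adjusted p = 0.0122). In the lifted GENCODE annotation, 49.3% of the exonic bases of ASNS are shared with another gene on its strand, and how the authors' annotation divided such reads is not given in the sources used here.

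KLF6 (ENSG00000067082, chr10:3818188-3827473, minus strand) encodes a zinc-finger factor that responds early to growth signals and stress. It stood at 142 and 138 CPM in co-treatment, 313 and 326 CPM with gemcitabine, 151 and 175 CPM in the controls and 104.8 and 116.1 CPM with genistein alone. The gemcitabine libraries were thus the highest of the PANC1 libraries, and the co-treatment libraries lay just below the controls. The log2FC on adding genistein was -1.19 ± 0.10 (adjusted p = 0.0168).

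RP11-284F21.10 (chr1:156611458-156614679, minus strand) lies between RP11-284F21.9 and RP11-284F21.7, both on its strand, and inside the span of BCAN on the opposite strand. It stood at 32.6 and 36.4 CPM in co-treatment, 9.63 and 8.43 CPM with gemcitabine, 4.01 and 3.52 CPM in the controls and 15.5 and 14.4 CPM with genistein alone. Its levels therefore did not overlap between any of the 4 PANC1 groups. The log2FC was 1.93 ± 0.15 (adjusted p = 0.0122). RP11-284F21.7 was at 4.56 and 7.77 against 1.84 and 1.53 CPM, and RP11-284F21.9 at 2.15 and 1.51 against 0.501 and 0.641 CPM. BCAN stayed between 0.326 and 0.522 CPM in the same libraries.

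All 3 calls were lost when any of the 4 libraries was left out of this fit, with adjusted p between 0.0556 and 0.391. With the replicate label as a block, their adjusted p was 0.0663.

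The 2 co-treatment libraries differed in their trend with GC content. Among the 2437 genes whose exons hold up to 40% GC, the median level of co-treatment II lay 0.447 log2 units below the mean of the gemcitabine libraries, while co-treatment I lay 0.018 above it. Among the 2076 genes with over 60% GC the order was turned, with co-treatment I at -0.291 and co-treatment II at 0.268. The difference between the replicates followed GC across 16563 genes with a Spearman correlation of -0.738 in co-treatment and 0.585 in gemcitabine. It was 0.747 in the controls and 0.255 with genistein alone, whose libraries share the estimate of the spread. Genes of a library are not independent replicates, so these correlations are descriptions and carry no p.

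**Figure D1:**
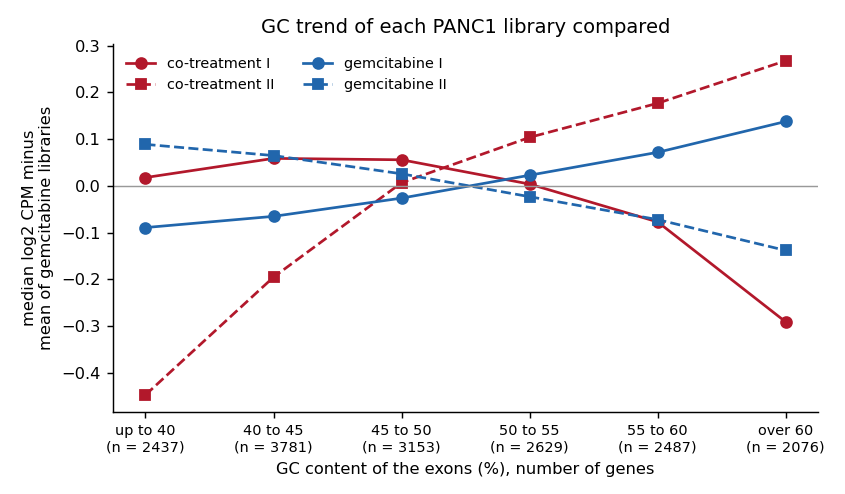
Median log2 CPM of each of the 4 PANC1 libraries minus the mean of the gemcitabine libraries (y axis), in 6 classes of exonic GC content (x axis, percent, with the number of genes). Co-treatment II climbs from -0.447 to 0.268 over the classes, co-treatment I ends at -0.291, and the gemcitabine libraries mirror each other by construction.

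Each library's trend with exonic GC was therefore removed by loess, and all genes were fitted again. The standard deviation of the replicate difference, over 12026 genes before and 12035 after the correction, went from 0.395 to 0.211 log2 units in co-treatment and from 0.204 to 0.136 in gemcitabine. In the controls it went from 0.39 to 0.204, and with genistein alone from 0.18 to 0.17. With the same thresholds, 669 of 16563 genes were now called higher (4.04%) and 522 lower (3.15%). At the adjusted p alone, 874 genes were higher (5.28%) and 1003 lower (6.06%). From here on, "rose" and "fell" are used of genes with an adjusted p of at most 0.05 in this corrected fit, and log2FC values and adjusted p come from it, while CPM are not GC-corrected.

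The genes called higher had a median of 10.0 CPM and those called lower 34.1 CPM, against 20.1 CPM for all genes tested. A call needed a mean FPKM above 1 in co-treatment alone, so a weakly expressed gene could be called when it was higher there and not when it was lower, and these medians and the splits by gene type carry that filter. Their exonic length had a median of 4305 bases, against 6530 bases for the genes called lower and 4476 bases for all. Of the 1191 called, 962 were protein-coding, 150 long noncoding RNAs and 52 processed pseudogenes. Of the long noncoding RNAs 129 were higher and 21 lower, and of the processed pseudogenes 15 were higher and 37 lower, while 1303 and 1990 of all genes tested were of these types. The median absolute log2FC was 0.60, and 163 genes exceeded 1. The co-treatment and gemcitabine libraries did not overlap in CPM in 1138 of the 1191, which were chosen for this change, and in 7409 of all 16563 genes tested.

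The count depended on the gemcitabine libraries. It was 489 without co-treatment I and 422 without co-treatment II, but 30 without gemcitabine I and 26 without gemcitabine II. With library size alone in place of TMM, 74.3% of the called genes were higher, against 56.2% here.

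The genes that passed whichever of the 4 libraries was left out numbered 21, of which 10 rose and 11 fell. Those that rose were ASNS, PCK2, CHAC1, UNC5B, SLFN5, RND1, NGFR and the noncoding RP11-284F21.10, RP11-284F21.7 and RP11-362F19.1. Those that fell were KLF6, B3GNT7, CSF1, ETS2, CTGF, DKK1, TNS3, SEMA4B, VIM, HSPA8 and TUBB. Among them, ASNS and PCK2 serve amino acid and carbon metabolism, CSF1 and DKK1 are secreted ligands, UNC5B and NGFR are cell-surface receptors, and VIM and TUBB build the cytoskeleton. The log2FC of ASNS after the correction was 1.14 ± 0.08 (adjusted p = 0.00102), that of KLF6 -1.26 ± 0.08 (adjusted p = 0.000792) and that of RP11-284F21.10 1.85 ± 0.10 (adjusted p = 0.000417).

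**Figure D2:**
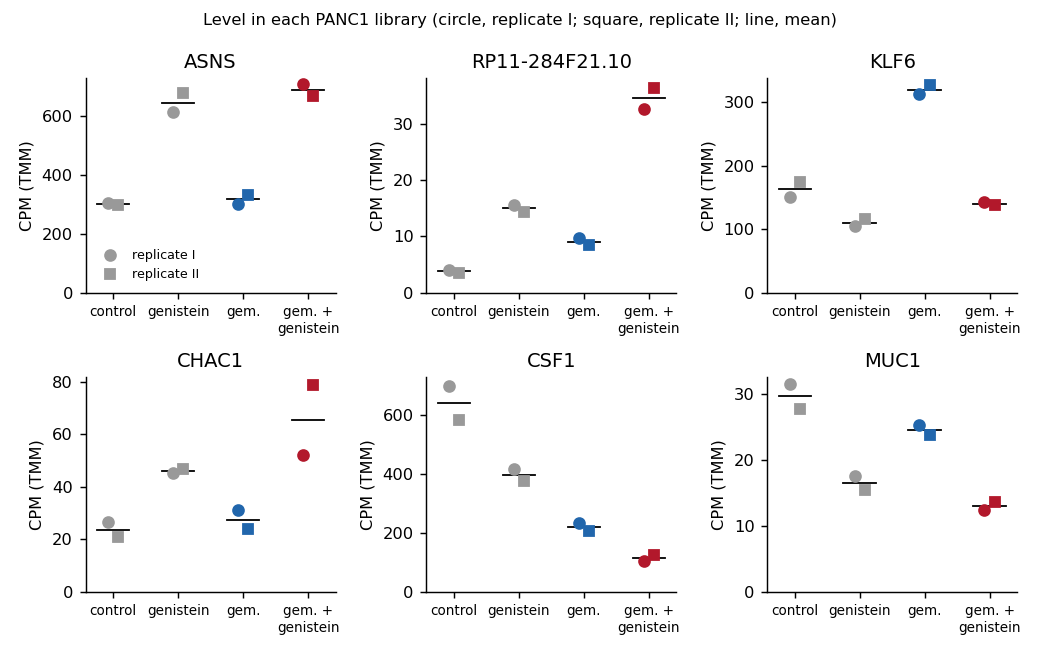
CPM of ASNS, RP11-284F21.10, KLF6, CHAC1, CSF1 and MUC1 in the 8 PANC1 libraries (y axis, CPM, TMM-scaled, not GC-corrected), with 1 point per library and a bar at the mean of each group. ASNS and CHAC1 stand higher with genistein whether or not gemcitabine is present, while KLF6 is highest with gemcitabine alone, at 313 and 326 CPM.

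The integrated stress response list held the most genes that rose. Of 18 members tested, 10 rose and 1 fell, where 5.28% and 6.06% of all genes did. The median log2FC was 0.26 against -0.032 over all genes tested. These values of all genes are the reference for every list that follows. Genistein without gemcitabine gave the integrated stress response list a median of 0.473 in PANC1, so its rise was not particular to co-treatment. Without gemcitabine I or gemcitabine II, 1 member rose, and without co-treatment I or co-treatment II, 4 rose. In every other list, too, no more than 2 members rose and no more than 1 fell once either gemcitabine library was left out. CHAC1, which degrades glutathione, stood at 52.1 and 78.7 CPM in co-treatment and 31.0 and 23.9 CPM with gemcitabine, a log2FC of 1.22 ± 0.09 (adjusted p = 0.00102). TRIB3, a pseudokinase, was at 75.8 and 104.6 against 66.0 and 53.8 CPM, a log2FC of 0.53 ± 0.08 (adjusted p = 0.00855). In both genes the replicates of a group lay far apart, and the groups still did not overlap.

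DDIT3, the pro-apoptotic factor CHOP, stood at 210 and 193 CPM in co-treatment and 131 and 135 CPM with gemcitabine. The controls were far lower, at 25.9 and 28.0 CPM. Its log2FC on adding genistein was 0.51 ± 0.08 (adjusted p = 0.00973), and that of genistein alone against the control was 0.95 ± 0.11. The exons of another gene on the opposite strand cover 31.6% of it, and the strand setting of the counting is not given in the sources used here. ATF4 itself was at 236 and 245 against 177 and 177 CPM, a log2FC of 0.37 ± 0.09 (adjusted p = 0.0408). NUPR1, a small stress-induced nuclear protein, was at 15.6 and 18.5 against 10.8 and 9.76 CPM, and VLDLR, ADM2, DDIT4, CEBPG and ATF3 rose by 0.25 to 0.70 on the log2 scale. The member that fell was GDF15, a stress-induced cytokine, at 39.3 and 72.4 against 92.5 and 67.2 CPM, so its groups overlapped.

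Genes of amino acid supply, several of them also targets of ATF4, moved mostly upward where they passed. Of 31 genes for synthesis, transport and tRNA charging, 9 rose and 1 fell, with a median log2FC of 0.068. Their median with genistein alone in PANC1 was larger, at 0.279. CTH, which makes cysteine, stood at 18.6 and 17.3 against 6.96 and 9.66 CPM (log2FC 1.15 ± 0.13, adjusted p = 0.00423). PSAT1 of the serine pathway stood at 284 and 267 against 174 and 189 CPM (log2FC 0.65 ± 0.08, adjusted p = 0.0049). PCK2, the mitochondrial PEP carboxykinase, was at 121 and 142 against 69.1 and 63.5 CPM (log2FC 0.91 ± 0.08, adjusted p = 0.00161). For these 3 genes every co-treatment library exceeded every gemcitabine library. GPT2, SLC1A4, MTHFD2, PHGDH and the cystine carrier gene SLC7A11 also rose. The amino acid carrier gene SLC38A2 fell instead, from 308 and 360 CPM with gemcitabine to 230 and 156 CPM in co-treatment (log2FC -0.60 ± 0.07, adjusted p = 0.00423).

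The unfolded protein response in the endoplasmic reticulum uses a separate set of chaperones. None of 23 listed chaperones and sensors passed in either direction with limma-voom after the correction, and their median log2FC was -0.058. Of all genes, 5.28% rose and 6.06% fell. HSPA5, the chaperone BiP, stood at 739 and 733 CPM in co-treatment and at 692 and 711 CPM with gemcitabine, a log2FC of 0.07 ± 0.07.

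ATF4 and its partners bind the amino acid response element, whose core was searched here as TGATGNAA on both strands in the 250 bases before each RefSeq start. Of 27305 promoters of the GRCh38.p14 RefSeq table, 870 held it (3.19%). Among the integrated stress response genes that rose, 9 of 10 had a promoter in the table and 2 held the motif, ATF3 and CHAC1, while none of the 7 promoters of the other tested members did. Among the amino acid genes that rose, 6 of 9 had a promoter in the table and 1 held it, ASNS, beside 2 of 17 among the other tested members. A match is a description of letters and shows no binding. The 3 promoters that belong to genes that rose are printed 5′ to 3′ on the strand of the gene, with the match in capitals.

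ASNS: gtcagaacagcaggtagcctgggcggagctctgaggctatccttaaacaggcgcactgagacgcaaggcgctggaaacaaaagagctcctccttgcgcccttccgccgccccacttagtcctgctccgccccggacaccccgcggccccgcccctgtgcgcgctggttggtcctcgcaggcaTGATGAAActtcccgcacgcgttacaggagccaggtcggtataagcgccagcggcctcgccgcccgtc

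CHAC1: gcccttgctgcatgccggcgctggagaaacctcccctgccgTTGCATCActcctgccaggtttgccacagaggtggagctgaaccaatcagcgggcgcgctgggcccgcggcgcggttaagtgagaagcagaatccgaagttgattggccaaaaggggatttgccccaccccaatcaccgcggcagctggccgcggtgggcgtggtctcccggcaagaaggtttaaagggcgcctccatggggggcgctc

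ATF3: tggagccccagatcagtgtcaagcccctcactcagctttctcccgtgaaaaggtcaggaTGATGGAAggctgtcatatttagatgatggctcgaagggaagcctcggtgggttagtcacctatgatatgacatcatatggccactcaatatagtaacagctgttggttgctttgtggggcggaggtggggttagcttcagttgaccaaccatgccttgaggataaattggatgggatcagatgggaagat

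These windows lie in GRCh38.p14 at chr7:97872409-97872658 (minus strand) for ASNS, chr15:40953221-40953470 (plus strand) for CHAC1 and chr1:212565157-212565406 (plus strand) for ATF3. The ASNS match begins 68 bases before the start and is read in the direction of the gene. The CHAC1 match begins 209 bases before the start and is on the opposite strand, and the ATF3 match begins 191 bases before the start in the direction of the gene.

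The genes of cell division that passed were nearly all lower in co-treatment. Of 39 mitosis genes tested, none rose and 16 fell, with a median log2FC of -0.307, and 37 of the 39 had a log2FC below 0. Of 46 DNA replication genes 12 fell and 1 rose, with a median of -0.176. Without gemcitabine I or II no member of either list passed, and without co-treatment I or II the number that fell was 6 and 1 for mitosis and 3 and 2 for replication. Genistein without gemcitabine gave medians of -0.097 for mitosis and 0.046 for replication in PANC1.

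BUB1B, a kinase of the spindle checkpoint, stood at 84.3 and 68.7 CPM in co-treatment and at 109.8 and 120 CPM with gemcitabine (log2FC -0.58 ± 0.09, adjusted p = 0.0101). ESPL1, the separase that parts sister chromatids, was at 150 and 177 against 209 and 193 CPM (log2FC -0.39 ± 0.06, adjusted p = 0.0103). PLK1, a kinase of mitotic entry, was at 56.4 and 71.4 against 83.9 and 79.1 CPM (log2FC -0.44 ± 0.08, adjusted p = 0.0141). The PLK1 control libraries stood at 214 and 172 CPM, well above all 4. CENPF, a kinetochore protein, was at 70.2 and 43.8 against 99.4 and 105.9 CPM, and KIF20B, a mitotic kinesin with an exonic GC of 34.3%, at 12.6 and 5.16 against 20.4 and 21.2 CPM. In both, co-treatment II was by far the lower replicate. Among the replication genes, the sliding clamp PCNA was at 306 and 275 against 357 and 381 CPM (log2FC -0.37 ± 0.06, adjusted p = 0.0111) and the helicase subunit MCM4 at 622 and 591 against 673 and 738 CPM (log2FC -0.28 ± 0.05, adjusted p = 0.0156). The gene that rose was TK1, thymidine kinase, at 400 and 535 against 421 and 353 CPM (log2FC 0.24 ± 0.06, adjusted p = 0.033), with overlapping groups.

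Of 20 genes for the uptake, activation and targets of gemcitabine, 2 rose and 2 fell, where 5.28% and 6.06% of all genes did. The median log2FC of the list, -0.028, lay beside the -0.032 of all genes. The efflux pump gene ABCB1 stood at 3.91 and 2.55 CPM in co-treatment, 1.11 and 0.887 CPM with gemcitabine and 0.244 and 0.323 CPM in the controls. It rose by a log2FC of 1.75 ± 0.21 (adjusted p = 0.005), from a low level. RRM2, the ribonucleotide reductase subunit that gemcitabine diphosphate inhibits, was at 834 and 835 against 967 and 1071 CPM and fell (log2FC -0.37 ± 0.06, adjusted p = 0.0132), though it stayed above the controls at 534 and 573 CPM. SAMHD1, a triphosphohydrolase, rose (log2FC 0.29 ± 0.08, adjusted p = 0.0462), and the transporter gene ABCC4 fell (log2FC -0.46 ± 0.11, adjusted p = 0.034). Of 6 topoisomerase genes 2 fell, TOP1 (log2FC -0.45) and TOP2A, at 339 and 242 against 386 and 434 CPM.

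Output genes of growth factor signalling moved in both directions. Of 23 ERK feedback and output genes 5 rose and 2 fell, and of 22 immediate early genes 4 rose and 3 fell. The transcription factor gene FOS stood at 11.9 and 14.96 CPM in co-treatment, 5.68 and 5.18 CPM with gemcitabine and 0.88 and 0.679 CPM in the controls. Its log2FC was 1.2 ± 0.12 (adjusted p = 0.00319). HBEGF, a ligand of the EGF receptor, was at 30.8 and 32.1 against 17.8 and 17.6 CPM (log2FC 0.73 ± 0.11, adjusted p = 0.00975). DUSP6, which switches ERK off, was at 33.0 and 29.7 against 20.8 and 19.08 CPM (log2FC 0.59 ± 0.10, adjusted p = 0.0128). FOS, HBEGF and DUSP6 kept their groups apart. DUSP4 had 11 and 15 reads in co-treatment and 2 and 3 with gemcitabine, too few for a fold. Among the genes that fell, SPRY1, an inhibitor of receptor signalling, was at 12.3 and 13.3 against 18.2 and 22.2 CPM (log2FC -0.74 ± 0.14, adjusted p = 0.0178) and FOSL1, a partner of JUN, fell too (log2FC -0.44 ± 0.08, adjusted p = 0.0169).

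CSF1, the macrophage growth factor, stood at 105.2 and 125 CPM in co-treatment, 234 and 207 CPM with gemcitabine and 699 and 584 CPM in the controls (log2FC -1.01 ± 0.07, adjusted p = 0.000792). It was thus lowest in co-treatment of all PANC1 groups. DKK1, an inhibitor of Wnt signalling, was at 141 and 124 against 222 and 234 CPM (log2FC -0.79 ± 0.07, adjusted p = 0.00145). Of 17 YAP and TGF-beta target genes none rose and 4 fell, with a median of -0.216. CTGF, a matricellular protein, was at 77.1 and 75.9 against 125 and 134 CPM, and at 46.4 CPM in each control (log2FC -0.86 ± 0.08, adjusted p = 0.00251). TGFB2 was at 25.3 and 20.2 against 36.97 and 41.0 CPM (log2FC -0.74 ± 0.10, adjusted p = 0.00782), and CYR61 fell by 0.24 on the log2 scale. CSF1, CCL2 and CXCL1 were the 3 genes that fell among 21 NF-kB subunits and targets (14.3%), of which none rose. Of all genes, 6.06% fell and 5.28% rose.

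Of 20 epithelial and mesenchymal genes 2 fell and 1 rose, and 17 had a log2FC below 0. The intermediate filament gene VIM was at 2638 and 2890 against 3853 and 3692 CPM (log2FC -0.54 ± 0.05, adjusted p = 0.00202), and the keratin gene KRT19 at 251 and 346 against 440 and 362 CPM (log2FC -0.49 ± 0.06, adjusted p = 0.00423). One filament is mesenchymal and the other epithelial, and both were lower. CLDN1, a tight junction protein, rose (log2FC 0.44 ± 0.10, adjusted p = 0.0328). COL1A1 was at 136 and 217 against 301 and 240 CPM (log2FC -0.70 ± 0.10, adjusted p = 0.00782).

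The oxidative stress factor NRF2 governs detoxifying enzymes. Of 25 target genes 7 rose and 2 fell, with a median of 0.157. Their median with genistein alone in PANC1 was larger, at 0.386. NQO1, a quinone reductase, was at 437 and 459 against 305 and 308 CPM (log2FC 0.54 ± 0.09, adjusted p = 0.0134), and OSGIN1 at 27.4 and 42.5 against 19.0 and 18.5 CPM (log2FC 0.81 ± 0.12, adjusted p = 0.00918). EPHX1, FTL, GCLM, SLC7A11 and ME1 rose by 0.28 to 0.54 on the log2 scale. The heme oxygenase gene HMOX1 went the other way, at 80.7 and 102.4 against 144 and 119 CPM (log2FC -0.59 ± 0.07, adjusted p = 0.00552). Of 7 tested genes of the aryl hydrocarbon receptor, NQO1 rose, while the repressor AHRR (31.8 and 39.1 against 47.3 and 42.8 CPM) and CYP1B1 (413 and 317 against 522 and 575 CPM) fell.

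The cytosolic chaperone genes that passed all fell. Of 15 heat shock genes none rose and 6 fell, with a median of -0.318. HSPA8 stood at 1160 and 1133 against 1469 and 1555 CPM (log2FC -0.49 ± 0.05, adjusted p = 0.00251), and HSP90AB1 at 1136 and 1124 against 1373 and 1419 CPM (log2FC -0.39 ± 0.04, adjusted p = 0.00423). The controls were above both groups, at 2796 and 2645 CPM for HSPA8. HSPB1 was at 91.3 and 140 against 178 and 136 CPM, so its groups overlapped before the correction.

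Lipid and lysosomal genes that passed all rose. Of 32 genes of cholesterol and fatty acid synthesis 6 rose and none fell, with a median of 0.088. The desaturase gene SCD was at 351 and 360 against 242 and 267 CPM (log2FC 0.43 ± 0.06, adjusted p = 0.0084), and INSIG1, a sterol sensor, at 89.7 and 79.7 against 54.4 and 60.05 CPM (log2FC 0.55 ± 0.08, adjusted p = 0.00848). TM7SF2, a sterol reductase, was at 41.4 and 52.4 against 27.2 and 25 CPM (log2FC 0.82 ± 0.13, adjusted p = 0.0111). Of 9 liver X receptor genes 3 rose, ABCG1, LPCAT3 and the receptor NR1H3. Of 30 lysosomal and autophagy genes 4 rose (13.3%), among them GAA, NEU1 and CTSL, with a list median of only 0.015. Over all genes 5.28% rose and 6.06% fell. NEU1, a sialidase, was at 170 and 182 against 115.3 and 113.9 CPM (log2FC 0.52 ± 0.08, adjusted p = 0.00973).

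Among 29 apoptosis regulators 2 rose and 1 fell (10.3%), a share near that of all genes, of which 5.28% rose and 6.06% fell. CASP9, the initiator caspase of the mitochondrial route, was at 27.1 and 26.0 against 19.3 and 15.9 CPM (log2FC 0.50 ± 0.12, adjusted p = 0.0345), and CASP10 had 36 and 40 against 15 and 16 reads. BMF, a BH3-only protein, was at 13.4 and 15.3 against 24.6 and 21.94 CPM (log2FC -0.79 ± 0.10, adjusted p = 0.00621). Of 22 p53 target genes 4 rose and 1 fell, with BTG2, an antiproliferative gene, at 30.3 and 34.1 against 18.4 and 17.4 CPM and TP53I3 at 100.6 and 112.2 against 78.3 and 71.8 CPM. CDKN1A, the inhibitor p21, was at 157 and 192 against 178 and 163 CPM, a log2FC of -0.05 ± 0.06 after the correction and 0.03 ± 0.14 before it.

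The genes that the study discusses for genistein include its estrogen receptors. ESR1 had no reads in the 4 libraries, where 3 reads would be 0.152 to 0.21 CPM, and ESR2 had 1 or 2 reads in each. The membrane estrogen receptor gene GPER1 was at 5.54 and 10.8 CPM in co-treatment and 9.24 and 6.71 CPM with gemcitabine, and its log2FC of -0.05 ± 0.16 was no larger than the spread between replicates. None of 13 estrogen receptors and estrogen-induced genes passed, where 5.28% of all genes rose and 6.06% fell. At those shares a list this small can hold none. Of 10 tested genes that the study names, 3 rose (DDIT3, ITPR1, CASP9) and 2 fell (MUC1, RXRA). This list was chosen by the study on these libraries, so its counts are not independent evidence. In the paper's proposed model VDR, RXRA, SP1, DDIT3 and CASP9 are activated downstream of GPER1. The paper describes proposed targets as upregulated on co-treatment, whereas RXRA fell here and VDR and SP1 did not pass. It reports MUC1 as repressed in both lines.

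MUC1, a membrane mucin, was at 12.4 and 13.6 CPM in co-treatment, 25.3 and 23.8 CPM with gemcitabine and 31.6 and 27.8 CPM in the controls (log2FC -0.98 ± 0.12, adjusted p = 0.00532). Its co-treatment libraries were the lowest of the 8. ITPR1, the calcium release channel of the endoplasmic reticulum, was at 31.9 and 29.6 against 23.7 and 22.4 CPM (log2FC 0.42 ± 0.10, adjusted p = 0.034). RXRA, a nuclear receptor, was at 36.3 and 49.5 against 60.2 and 54.97 CPM (log2FC -0.47 ± 0.09, adjusted p = 0.017). Values that did not pass were 0.35 ± 0.11 for the vitamin D receptor gene VDR (adjusted p = 0.0792), 0.37 ± 0.12 for NR4A1 (adjusted p = 0.0723) and -0.18 ± 0.06 for SP1 (adjusted p = 0.0995). Among 21 calcium genes 2 rose and 5 fell. The 2 calcium pumps of the endoplasmic reticulum that passed went in opposite directions, ATP2A3 at 25.3 and 37.2 against 21.72 and 18.6 CPM and ATP2A2 at 538 and 516 against 600 and 628 CPM.

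Of 35 interferon-stimulated genes 4 rose and 2 fell (17.1%), against 5.28% and 6.06% of all genes. SLFN5 was at 21.8 and 15.1 against 7.02 and 7.54 CPM (log2FC 1.47 ± 0.10, adjusted p = 0.00101) and IRF7, a factor of the interferon response, at 25.8 and 50.0 against 22.1 and 16.2 CPM (log2FC 0.97 ± 0.10, adjusted p = 0.00288), whereas the RNA sensor gene DDX58 fell (log2FC -0.55 ± 0.11, adjusted p = 0.0175). Of 19 hypoxia and glycolysis genes EGLN3 and PFKFB3 rose and LDHA fell (15.8%), and of 13 mitochondrially encoded genes MT-CYB rose (7.69%).

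**Figure D3:**
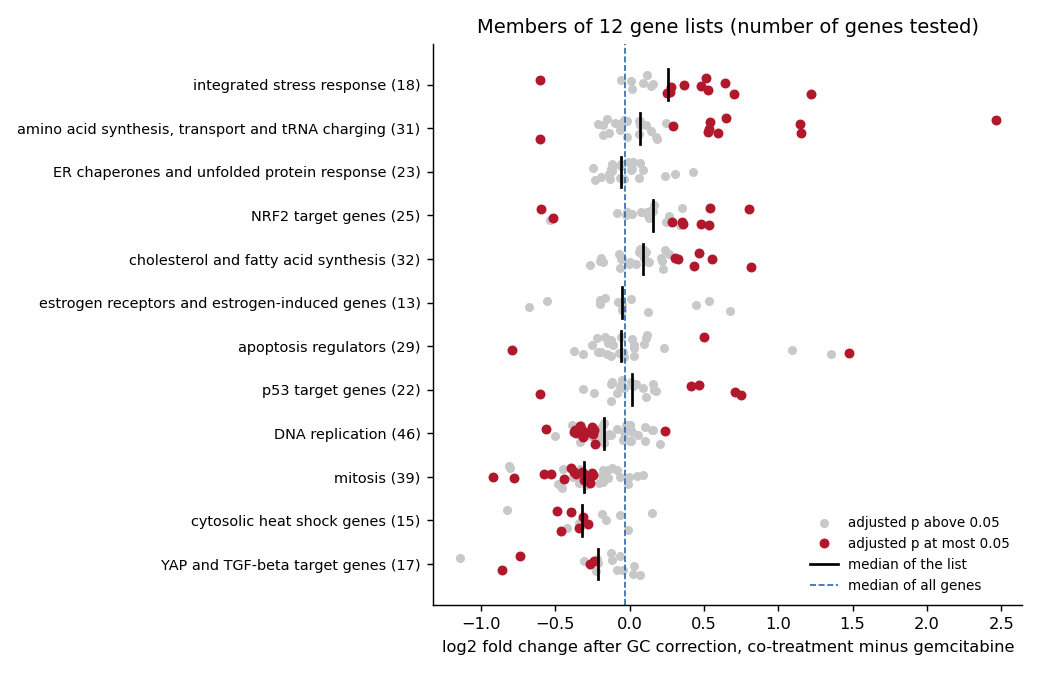
Log2FC after GC correction (x axis) of the tested members of 12 gene lists (rows, with the number of genes tested), with genes at an adjusted p of at most 0.05 in red, the list median as a black bar and the median of all genes as a dashed line at -0.032. The integrated stress response lies mostly right of the line with a median of 0.26, and mitosis and heat shock genes lie mostly left of it with medians of -0.307 and -0.318.

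Ranked by log2FC among 577 protein-coding genes that were called, kept their groups apart, passed with the replicate block and had a mean of at least 1 CPM, the 12 largest rises were those of PTCHD2, ALPK1, VWA5B2, TMEM86A, ABCB1, NGFR, RND1, IL10RA, SLC30A3, SDR42E1, UPK1A and ADC. This ranking was chosen after values were seen. PTCHD2, ALPK1, VWA5B2, TMEM86A, ABCB1, IL10RA, SLC30A3, SDR42E1 and UPK1A had a mean FPKM above 1 in co-treatment but not with gemcitabine alone. They met the FPKM threshold only through the group where they were higher. PTCHD2 was at 6.78 and 9.22 against 2.12 and 1.33 CPM (log2FC 2.19 ± 0.23, adjusted p = 0.00336). NGFR, the low-affinity neurotrophin receptor, was at 19.7 and 24.3 against 7.41 and 5.62 CPM (log2FC 1.75 ± 0.14, adjusted p = 0.00122). RND1, a small GTPase that loosens actin fibres, was at 7.82 and 10.1 against 2.51 and 2.46 CPM (log2FC 1.73 ± 0.15, adjusted p = 0.00183). All 4 PANC1 groups of IL10RA, a cytokine receptor chain, were low, with 2.41 and 2.44 CPM in co-treatment, 0.668 and 0.69 CPM with gemcitabine and at most 0.232 CPM without gemcitabine.

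The 12 largest falls by the same ranking were those of PXDN, KLF6, B3GNT7, GOLGA7B, ANKRD18A, KIF20B, CXCL1, TTC9B, CSF1, MUC1, PDE5A and KLHL14. PXDN, a peroxidase of the extracellular matrix, was at 2.80 and 3.07 against 6.85 and 6.51 CPM (log2FC -1.27 ± 0.14, adjusted p = 0.00345). B3GNT7, a glycosyltransferase, was at 23.8 and 41.4 against 73.5 and 64.4 CPM and at 205 and 158 CPM in the controls (log2FC -1.17 ± 0.11, adjusted p = 0.00251). PDE5A, a cyclic GMP phosphodiesterase, was at 39.5 and 25.1 against 63.3 and 76.1 CPM (log2FC -0.97 ± 0.12, adjusted p = 0.00532). The falls were smaller than the rises, since the 12 largest ran from -0.96 to -1.27 and the 12 rises from 1.56 to 2.19, and a gene needed a mean FPKM above 1 in co-treatment to be called.

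Among the 190 of these genes with at least 50 CPM on average, ASNS, PCK2, HAP1, AFMID, CNNM4 and RNF141 had the 6 largest rises and KLF6, B3GNT7, CSF1, PDE5A, ETS2 and LPCAT1 the 6 largest falls. AFMID, an enzyme of tryptophan breakdown, was at 82.9 and 88.6 against 51.1 and 48.0 CPM (log2FC 0.69 ± 0.07, adjusted p = 0.00363). H1F0, a linker histone of resting cells, was at 183 and 194 against 115.2 and 111.7 CPM, while the controls stood at 217 and 200 CPM (log2FC 0.64 ± 0.06, adjusted p = 0.00268). ETS2, a transcription factor of the Ras pathway, was at 210 and 227 against 372 and 378 CPM (log2FC -0.88 ± 0.07, adjusted p = 0.00102). TNS3, a focal adhesion protein, was at 195 and 222 against 330 and 312 CPM and at 977 and 822 CPM in the controls (log2FC -0.72 ± 0.05, adjusted p = 0.00102).

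**Figure D4:**
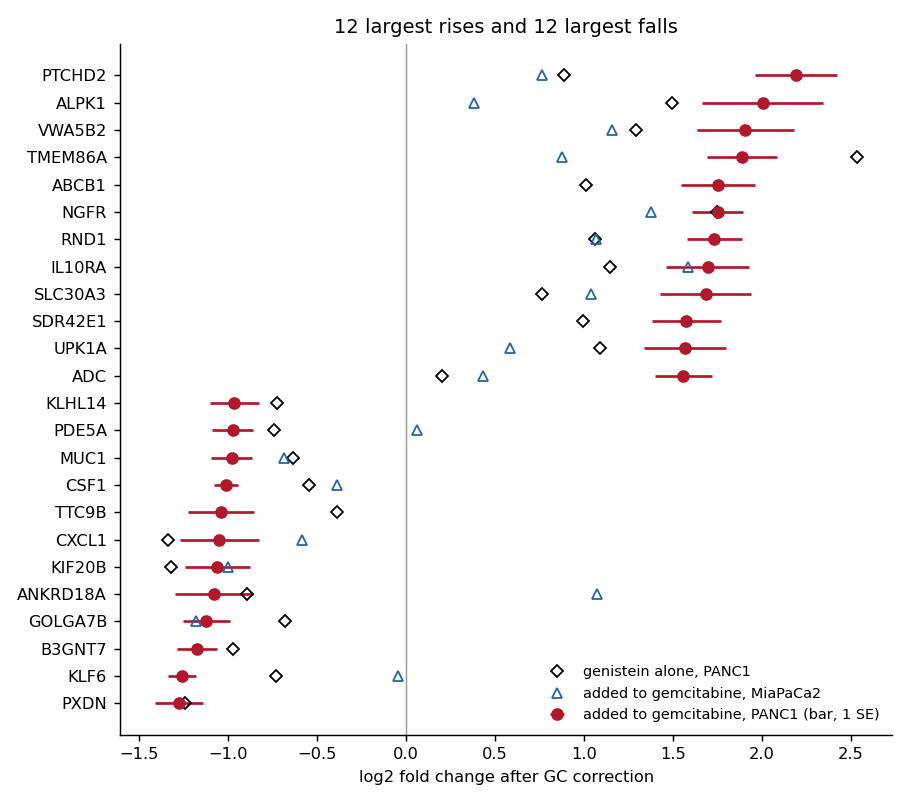
Log2FC after GC correction (x axis) of the 12 largest rises and 12 largest falls on adding genistein to gemcitabine in PANC1 (red points, bar 1 SE), with genistein alone in PANC1 (open diamonds) and genistein added to gemcitabine in MiaPaCa2 (open triangles, absent where the gene was not tested). All diamonds lie on the same side of 0 as the red points, while in MiaPaCa2 ANKRD18A is at 1.08 and PDE5A at 0.07, on the other side, and KLF6 at -0.04.

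Genistein without gemcitabine was compared with the control in the other 4 PANC1 libraries. The libraries compared are thus different ones, but both comparisons came from the same fit and share its estimate of the spread of each gene. Of the 1191 called genes, 92.5% had the same sign there, against 68.3% of all genes. Of the called genes, 516 passed there, 512 in the same direction, where 11.4% of all genes passed. A gene with a small shared estimate of the spread passes more easily in both comparisons, so the number that passed is not an independent check. The median log2FC of the genes called higher was 0.68 with gemcitabine and 0.44 without, and that of the genes called lower -0.53 and -0.34. The genes were chosen for their change in the presence of gemcitabine, so these medians do not compare the size of the 2 effects.

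A difference between the change with and without gemcitabine was tested for every gene. In the counts as deposited no gene passed (0%, lowest adjusted p 0.734), with 832 genes at an unadjusted p of at most 0.05, 0 genes by edgeR, 4 by DESeq2 and 15 on log2(FPKM + 1). After the GC correction 2 genes passed (0.0121%), HMOX1 and SQSTM1, and with the replicate block added to the correction 0 genes did. HMOX1 stood at 147 and 110.5 CPM in the controls, 162 and 158 CPM with genistein, 144 and 119 CPM with gemcitabine and 80.7 and 102.4 CPM with both. It rose with genistein alone (log2FC 0.52 ± 0.07, adjusted p = 0.00534) and fell when gemcitabine was present, a difference of -1.12 ± 0.10 (adjusted p = 0.014). SQSTM1, an autophagy receptor, stood at 1342 and 1123, 2136 and 2098, 1315 and 1217 and 1329 and 1558 CPM in the same order. It rose with genistein alone (log2FC 0.95 ± 0.05, adjusted p = 0.000259) and had a log2FC of 0.12 ± 0.05 with gemcitabine (adjusted p = 0.18), a difference of -0.84 ± 0.07 (adjusted p = 0.014).

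**Figure D5:**
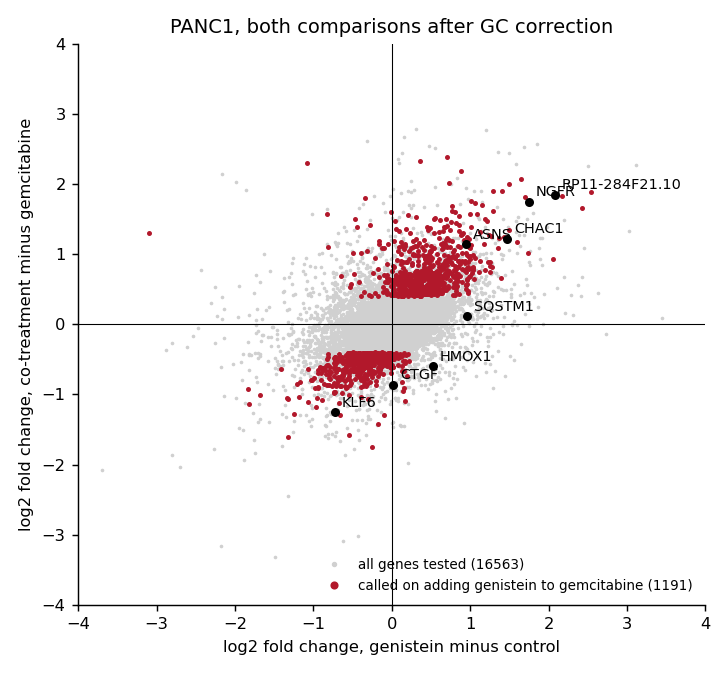
Log2FC after GC correction of genistein added to gemcitabine (y axis) against genistein alone (x axis) in PANC1 for 16563 genes, with the 1191 called genes in red and 8 genes named. The axes end at 4, which leaves 4 genes outside, and HMOX1 at 0.52 on the x axis and -0.59 on the y axis stands apart from the diagonal.

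In MiaPaCa2, 1074 of the called genes were tested for the same drug addition, and 89.1% had the same sign, against 68.9% of all genes. There 510 passed, 494 of them in the same direction, where 19% of all genes passed. A difference between the lines was found for 19 genes in the counts as deposited (0.106%) and for 240 after the correction (1.37%), and 17 genes passed in both. KLF6 and RP11-284F21.10 were among the 17, and ASNS was not, with a difference of 0.20 (adjusted p = 0.52).

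KLF6 stood at 73.0 and 60.8 CPM in MiaPaCa2 co-treatment and 68.1 and 63.0 CPM with gemcitabine, where its groups overlapped (difference -1.2, adjusted p = 0.00032). ETS2 changed in opposite directions, from 372 and 378 to 210 and 227 CPM in PANC1 and from 19.8 and 18.6 to 27.4 and 28.2 CPM in MiaPaCa2 (difference -1.31, adjusted p = 9.02e-05). The hyaluronan synthase gene HAS3 fell in PANC1 from 75.1 and 70.8 to 47.0 and 51.0 CPM and rose in MiaPaCa2 from 38.0 and 35.4 to 54.6 and 53.6 CPM (difference -1.12, adjusted p = 0.00032). RRM2 fell in PANC1, as given above, and rose in MiaPaCa2 from 864 and 928 to 1153 and 1119 CPM (difference -0.62, adjusted p = 0.00119). Each of these 4 genes passed the test of the difference also in the counts as deposited.

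Some of the genes named above share exonic bases with a neighbour in the lifted annotation, which limits how surely their reads can be assigned. On the opposite strand this share was 27.2% for NGFR, 28.6% for DUSP6, 24.6% for VIM, 66.0% for LPCAT3, 46.7% for RP11-284F21.7, 22.4% for SQSTM1 and 19.4% for NQO1. On the same strand it was 58.7% for AHRR, 43.2% for DDX58, 22.7% for TGFB2 and 16.5% for NUPR1.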

How the data were processed

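RNA of PANC1 and MiaPaCa2 cells was sequenced by the authors from TruSeq Stranded mRNA libraries as single reads of 50 bases. Per the submitters' processing notes and the methods, reads were aligned to GRCh37 with TopHat2 2.0.4, reads with several positions were removed with Picard 1.29, HTSeq 0.6.1 gave the deposited raw counts per gene, and Cufflinks 2.1.1 gave the deposited FPKM. Neither the release of the annotation nor the use of strand in counting is given in the sources used here. The FPKM per isoform were not used.

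The test was limma-voom, run in R 4.3.3 with limma 3.58.1, TMM factors and filterByExpr of edgeR 4.0.16 on the 8 PANC1 libraries, with 4 residual degrees of freedom and Benjamini-Hochberg adjustment. FPKM entered only the threshold on the mean and an alternative on log2(FPKM + 1). For the GC correction, the loess trend (span 0.3) of each library's log2 CPM with exonic GC content was subtracted. Exons, coordinates and overlaps came from GENCODE v44 lifted to GRCh37, which need not be the authors' release, and promoters from the RefSeq table of GRCh38.p14. The difference between the lines was tested on all 16 libraries. DESeq2 1.42.0 was an alternative. The scripts were tested on simulated data.

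The comparison and the gene lists were chosen with earlier results of these data known. Genes were named by a rule on the genes called in the counts as deposited, which left ASNS and KLF6, together with genes that the study names and, in each list, the members of lowest adjusted p or with the role described. The ranking of rises and falls after the GC correction, RP11-284F21.10 and its neighbours, the genes that passed every fit and the genes that differed between the lines were added after values were seen. Replicates I and II are biological replicates per the methods. The p-values rest on the spread between the 2 replicates of each group, pooled over all groups in the fit. The labels do not say that a number pairs libraries of different groups, so no block was used in the main fit. Depth was 14314926, 16390908, 17514441 and 19687684 counts in co-treatment I and II and gemcitabine I and II, and the limit of 3 reads given for a gene with none covers counting error only. A few genes of the lists are counted but not reported by name here.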

Additional observations from a re-analysis of the deposited data

Results flagged for a closer look

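The results given here differed between conditions by a test of the difference itself, after the GC correction, at an adjusted p of at most 0.05 from limma. Values are differences of log2 fold changes, and all were chosen from genes named for other reasons or for this test, so they are descriptions of these libraries.

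Between the lines, the change on adding genistein to gemcitabine was more positive in PANC1 than in MiaPaCa2 for the genes that follow. The difference was 1.72 for RP11-284F21.10 and 1.74 for RP11-284F21.7, neighbours on 1 strand. It was 1.44 for PTCHD2, 1.66 for ALPK1, 1.03 for TMEM86A and 1.15 for ADC, all among the largest rises in PANC1. TRIB3 of the stress response differed by 0.57, CASP10 by 1.29, BTG2 by 0.72, SLFN5 by 0.76, GAA by 0.63, CLDN1 by 0.55 and TGM2 by 0.59. The transporter gene ABCC2 differed by 1.22, and it stood at 88.1 and 79.8 CPM in MiaPaCa2 co-treatment against 145 and 151 CPM with gemcitabine. The differences of 2.54 for ITPKB, 3.68 for NAV3 and 2.35 for RP11-362F19.1 are given as fitted values. ITPKB fell in both lines, with a log2FC of -0.47 ± 0.10 in PANC1 and -2.99 ± 0.51 in MiaPaCa2. NAV3 was at 0.86 ± 0.20 in PANC1 and -2.79 ± 0.53 in MiaPaCa2. RP11-362F19.1 was not tested in the fit of MiaPaCa2 alone.

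The change was more negative in PANC1 for KLF6 (-1.2), ETS2 (-1.31), CTGF (-1.08), HAS3 (-1.12), OPN3 (-1.49), KIAA1199 (-2.94), MICAL2 (-0.91), CSF1 (-0.6) and DKK1 (-0.57). For other single genes the values were -0.46 for PCNA, -0.62 for RRM2, -0.32 for TUBB, -0.4 for HSPA8 and -0.36 for HSP90AB1. Further values were -1.32 for BMF, -0.97 for CDKN1A, -0.91 for HMOX1, -0.41 for VIM and -0.36 for ATP2A2. CDKN1A did not pass in PANC1 itself. Part of the exons of OPN3 is shared with another gene.

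Within PANC1, the change with genistein in the presence of gemcitabine minus that in its absence was -1.12 for HMOX1 and -0.84 for SQSTM1. With the replicate block added to the GC correction, 0 genes passed this test.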

How the results depend on the processing

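The number of genes called depended on the treatment of GC content more than on the choice of scaling. As deposited, 3 genes were called (2 higher, 1 lower), and edgeR, DESeq2 size factors, library size alone, no low-count filter and other FPKM and fold criteria also gave 3. The count was 1191 (669 and 522) with the GC correction, 207 (155 and 52) with the DESeq2 Wald test, 17 (15 and 2) on log2(FPKM + 1), 485 (383 higher) with all 16 libraries, and 0 with only the 4 libraries compared, at an adjusted p of at most 0.01, and without any of the 4 libraries in turn. With the replicate block it was 0 (0 and 0), and with the block and the GC correction together 731 (415 and 316). The differences of replicates I and II correlated by -0.305 between co-treatment and gemcitabine as deposited and by -0.053 after the correction, and by 0.263 between gemcitabine and control as deposited and 0.019 after it, and the labels state no pairing. With the 4 libraries alone, chosen after seeing the data, the block gave 59 (44 and 15) and the crossed labels 1510 (772 and 738).

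After the GC correction the alternatives, added after seeing the data, gave 1004 to 1435 genes, except for the libraries left out in turn, which gave 26 to 489 (14 to 264 higher, 12 to 225 lower). With library size alone 271 were lower. The line difference passed for 19 genes as deposited, 240 with the GC correction, 7 with the replicate block, 184 with both, 86 with DESeq2, 6 with library size alone, 12 with no low-count filter, 0 with only the libraries compared and 1 to 10 with a library left out. The difference with and without gemcitabine passed for 0 genes as deposited, 2 with the GC correction, 0 with the replicate block with or without that correction, 4 with DESeq2 and 15 on log2(FPKM + 1). The cause of these changes was not tested.

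Of 139 genes examined singly, 4 turned in direction under some setting, none of them with a passing value in either direction at that setting. GPER1 was at 0.042 with edgeR, 0.05 with DESeq2, 0.04 with library size alone, 0.019 with all 16 libraries, 0.456 and -0.5 without co-treatment I and II, 0.211 without gemcitabine I and 0.023 with crossed labels, and after the correction at 0.18 and -0.296 without co-treatment I and II and 0.054 without gemcitabine I. CDKN1A was at -0.051 with the GC correction, with and without the block, at 0.167 and -0.123 without co-treatment I and II and -0.044 without gemcitabine II. CACNA1H was at 0.036 and -0.793 without co-treatment I and II, and HSPA5 after the correction at 0.147 and -0.01. After the correction, 351 of 1529 values of these genes lost the call.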
